A study of Mus musculus with 4 samples.

Results

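Nuclei of inguinal white adipose tissue (iWAT), a subcutaneous fat depot, were compared between young mice kept warm and young mice exposed to cold for 3 days. The comparison took the 4404 nuclei with at least 300 genes from the 4 young mice at thermoneutrality (TN) or after 3 days of cold (3D), of 15277 such nuclei in 12 mice. All were male C57BL/6 mice, 9 weeks old (young) or 57 weeks old (aged), without transgene or drug, and all were first acclimated to 30 °C for 3 weeks. TN mice then stayed at 30 °C for 2 weeks, whereas 3D mice stayed there for 11 more days and were moved to 6 °C for the last 3 days. The other groups, aged TN, aged 3D and young and aged mice after 14 days at 6 °C, entered the fits, where they added to the estimate of the spread between mice.

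White adipocytes store triglyceride in a large droplet and secrete hormones such as leptin and adiponectin. In the cold, sympathetic nerves release noradrenaline in the depot, and β-adrenergic receptors on adipocytes raise cAMP, which starts lipolysis and a thermogenic gene program. Adipocytes that run this program are called beige: they express uncoupling protein 1 (Ucp1), which lets mitochondria turn fuel into heat, together with the coactivator Ppargc1a and enzymes for burning and rebuilding fat. Fibroblastic progenitors, macrophages and blood vessels surround the adipocytes and remodel with them.

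The promoters of 2 genes of this program are shown because Gk was the gene with the smallest adjusted p in adipocyte nuclei and Ppargc1a is a textbook target of cAMP signalling. Each runs from 250 bases before to 50 after the start of the gene, read along the gene's strand, from RefSeq on GRCm38.p6. Capitals mark the cAMP response element core, TGACGT or its complement ACGTCA, found once in each window, 4 bases before the start of Gk and 50 before that of Ppargc1a (positions -4 and -50). Gk encodes glycerol kinase, which returns glycerol to triglyceride synthesis, and its window is chrX:85776770-85777069 on the minus strand.
Gk: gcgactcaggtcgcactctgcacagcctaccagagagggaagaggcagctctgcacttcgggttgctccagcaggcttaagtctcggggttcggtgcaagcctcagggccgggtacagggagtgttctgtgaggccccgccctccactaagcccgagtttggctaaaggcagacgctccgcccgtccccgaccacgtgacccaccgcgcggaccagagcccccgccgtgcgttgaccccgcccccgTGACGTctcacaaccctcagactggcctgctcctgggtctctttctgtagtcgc
The window of Ppargc1a is chr5:51567676-51567975, also on the minus strand.
Ppargc1a: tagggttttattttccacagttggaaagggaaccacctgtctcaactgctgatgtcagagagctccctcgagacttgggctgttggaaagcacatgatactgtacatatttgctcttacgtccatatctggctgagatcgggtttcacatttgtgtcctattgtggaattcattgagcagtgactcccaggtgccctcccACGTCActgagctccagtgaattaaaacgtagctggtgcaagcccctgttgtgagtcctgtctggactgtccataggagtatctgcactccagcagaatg
Of the 18 thermogenic genes listed for this comparison, 14 had a promoter in the table, and 3 of these (Dio2, Ppargc1a and Gk) held the 6 letters on either strand. They were found in 7.51% of all 32851 promoters of this length. The match describes the sequence and says nothing of binding.

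TN mice 1 and 2 gave 1137 and 670 nuclei, and 3D mice 1 and 2 gave 1308 and 1289. Mouse 1 of each group was in pool 1 and mouse 2 in pool 2, a pool being a set of nuclei run together. Total unique molecular identifiers (UMIs, counts of RNA molecules) were 1143378 and 849555 at TN and 2075246 and 2522644 at 3D. Scrublet marked 154 of the young nuclei (3.50%) as doublets, 21 had over 5% mitochondrial UMIs, and 26 held liver genes, all in pool 2 (17 at TN and 9 at 3D). These 201 nuclei were kept, and the counts of nuclei per class include them. Counts of genes past the threshold are also given without them where they changed. No barcode was in 2 aliquots of a pool, and 1 barcode of the young nuclei occurred in both pools. Markers of mesothelial and epithelial cells had no UMI in the 4 mice, and skeletal muscle markers summed to 0 and 124 UMIs at TN and 300 and 129 at 3D.

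The classes of nuclei were compared first. Clusters were called adipocyte-like and so on from their markers, and adipocyte nuclei and so on for short: adipocyte (Plin1, Adipoq, Acsl1 and others), fibroblast (Pdgfra, Dcn, Lama2), immune (Ptprc, Mrc1, F13a1) and endothelial (Pecam1, Flt1, Ptprb). Adipocyte nuclei were 54.8% and 37.0% of the nuclei of TN mice 1 and 2, and 59.2% and 39.3% in 3D mice 1 and 2. Within each pool the 3D mouse was slightly higher, and the pools lay further apart than the temperatures did. Fibroblast nuclei made up 30.4% and 40.3% at TN and 27.7% and 39.7% at 3D. Immune nuclei made up 10.0% and 13.9% at TN and 8.26% and 10.9% at 3D, lower at 3D within each pool. Endothelial nuclei made up 4.05% and 6.42% at TN and 3.98% and 6.44% at 3D. In the edgeR quasi-likelihood test of the nuclei counts, the log2 changes were 0.10 (SE 0.25), -0.08 (SE 0.25), -0.31 (SE 0.27) and -0.02 (SE 0.31) for these 4 classes, and the adjusted p was 0.953 for each. No share differed beyond the spread between mice, and a permutation of the 4 mice within pools could not give a two-sided p below 0.5.

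Adipocyte nuclei gave more UMIs each at 3D in both pools. Their median was 960 and 1351.5 UMIs in TN mice 1 and 2 and 1773 and 2649.5 in 3D mice 1 and 2, a ratio of 1.85 in pool 1 and 1.96 in pool 2. Both 3D mice lay above both TN mice. The ratio was smaller in the other main classes, with 1.13 and 1.41 in fibroblast, 1.10 and 1.45 in immune and 0.998 and 1.22 in endothelial nuclei, and the difference between classes was not tested. Adipocyte nuclei gave 60.6% and 46.3% of the UMIs at TN and 75.0% and 58.3% at 3D, so a value over all nuclei mixes the number of adipocyte nuclei, their RNA content and the level of a gene within them, which cannot be told apart there.

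**Figure D1:**
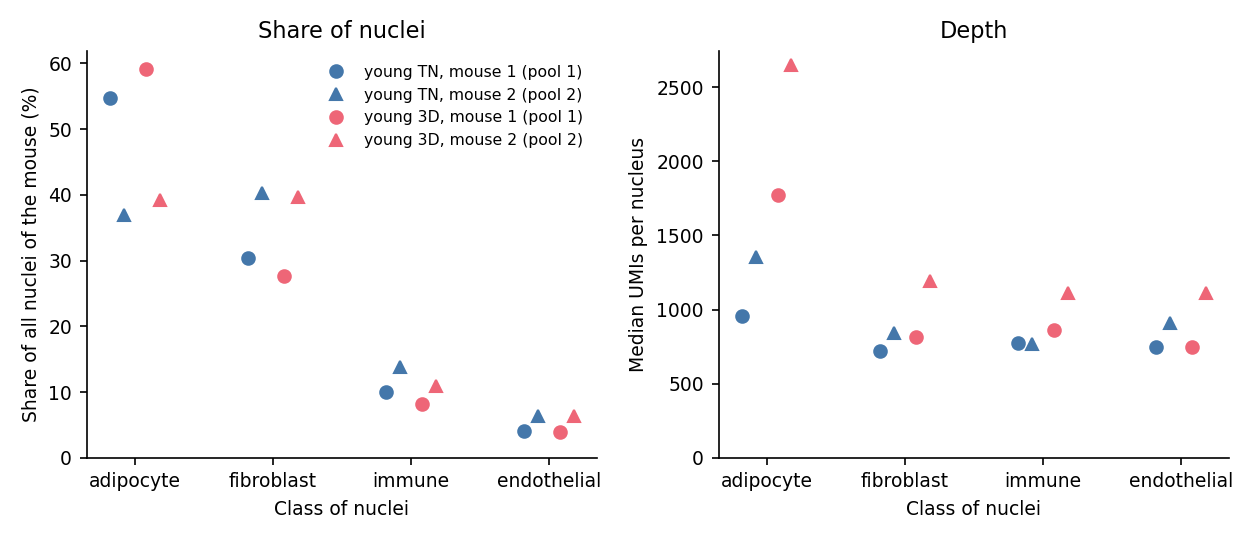
Share of all nuclei of a mouse in percent (left) and median UMIs per nucleus (right) in the 4 main classes, 1 symbol per mouse, with circles for pool 1, triangles for pool 2, blue for young TN and red for young 3D. Adipocyte shares follow the pool (54.8% and 59.2% in pool 1, 37.0% and 39.3% in pool 2), whereas the median UMIs of adipocyte nuclei are higher in both 3D mice (1773 and 2649.5) than in both TN mice (960 and 1351.5).

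Over all nuclei, 2 of 12521 genes tested (0.016%) passed an adjusted p of 0.05, both higher at 3D: Esrrg and Gk. Values are counts per 1000000 UMIs (CPM) of the scaled total of a mouse, and changes are log2 fold changes of young 3D over young TN from edgeR. Esrrg, on chromosome 1 from 187608791 to 188214885, encodes estrogen-related receptor gamma, a nuclear receptor that drives genes of oxidative metabolism. It had 55.9 and 22.5 CPM in TN mice 1 and 2 and 664 and 408 in 3D mice 1 and 2, so the groups were far apart. Its level changed by 3.78 (SE 0.37, adjusted p = 0.0198). Gk, on chromosome X from 85701937 to 85776819, had 11.2 and 16.9 CPM at TN and 318 and 196 at 3D, again without overlap. It changed by 4.22 (SE 0.44, adjusted p = 0.0198), although 2 of the 4 TN aliquots did not list the gene and could have held up to 5 UMIs of it each. Without the pool as a term no gene passed (0 of 12521, 1350 at an unadjusted p under 0.05), and none passed without any 1 of the 4 mice. DESeq2 called 370 genes, and 161 passed with unlisted genes at their upper limit, with Esrrg and Gk in both counts. With every nucleus thinned to 500 UMIs, 4 genes passed, and these 2 were among them.

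The next genes over all nuclei missed the threshold. Adtrp, which encodes a hydrolase of lipids, had no UMI at TN and 51.4 and 53.1 CPM at 3D, at least 5.27-fold higher (adjusted p = 0.0511). The bound puts each TN mouse at 10 UMIs, 5 for each aliquot that does not list the gene. A gene found in only 1 nucleus could exceed this. The 3 lower genes with the smallest p were Usp35, a deubiquitinating enzyme, Tshr, the receptor of thyroid stimulating hormone, and Gas6, a ligand of receptors that clear dying cells. Their log2 changes were -1.02 (SE 0.18), -1.11 (SE 0.21) and -1.58 (SE 0.31), with adjusted p of 0.103, 0.104 and 0.109. Tshr had 388 and 336 CPM at TN and 158 and 172 at 3D, and neither Usp35 nor Gas6 overlapped between the groups.

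Adipocyte nuclei held most of the genes that passed. Of 10475 genes tested there, 10 (0.0955%) passed, 8 higher and 2 lower at 3D, and both 3D mice lay on one side of both TN mice for all 10 with unlisted genes at 0. With unlisted genes at their upper limit this did not hold for Adcy10 and Plin5, of which TN mouse 2 can hold up to 25.6 CPM. The adipocyte nuclei of the groups fell mostly into different clusters. Cluster 2 held 88.1% and 72.2% of them in TN mice 1 and 2. Cluster 0 held 73.3% and 70.4% of them in the 3D mice, with 11.9% and 9.88% in cluster 5, which held none at TN. Over all 12 mice the median depth was 2997 UMIs in cluster 0 and 1279 in cluster 2. The part of depth in this split was not tested. Without the pool as a term 5 genes passed, without the marked nuclei 18 and without the cluster made mostly of doublets 23, and the latter counts held all 10. The 4 young mice alone gave 11 genes, 4 of the 10 among them, and DESeq2 gave 144 and a fit without the filter on low counts 75, each with all 10. Without TN mouse 1 no gene passed (0). Without TN mouse 2 the count was 5, without 3D mouse 1 it was 3 and without 3D mouse 2 it was 16, with 3, 3 and 6 of the 10 among them.

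Gk had the smallest p and rose from 14.1 and 12.8 CPM in TN mice 1 and 2 to 415 and 335 in the 3D mice. Both 3D mice stood far above both TN mice. The change was 4.85 (SE 0.35, adjusted p = 0.000379), with 4.79 within pool 1 and 4.60 within pool 2. After thinning every nucleus to 500 UMIs, a Gk UMI was found in 0.326% (95% Wilson interval 0.0895 to 1.18) and 0.408% (0.0721 to 2.28) of adipocyte nuclei at TN and in 11.0% (8.98 to 13.4) and 10.7% (8.32 to 13.7) at 3D. Without thinning the shares were 1.61% and 1.61% at TN and 18.3% and 20.4% at 3D. No fibroblast nucleus of the 4 mice had a Gk UMI, with median depths of 720.5 to 1190.5 UMIs, and the 4 mice had 2 to 3 Gk UMIs each in all their immune nuclei.

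Esrrg rose with it, from 81.6 and 48.7 CPM at TN to 856 and 701 at 3D (log2 change 3.54, SE 0.33, adjusted p = 0.00249). The 3D mice were again close to each other and far from the TN mice. The thinned share of adipocyte nuclei with an Esrrg UMI was 2.61% (1.61 to 4.198) and 2.45% (1.13 to 5.24) at TN and 24.8% (21.9 to 28.0) and 21.5% (18.1 to 25.3) at 3D. It lay between 0% and 0.595% in fibroblast nuclei of the same mice. Unthinned, the adipocyte shares were 4.82% and 5.65% at TN and 38.6% and 37.0% at 3D.

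Slc4a4, a sodium bicarbonate cotransporter on chromosome 5 from 88886818 to 89239653, rose in adipocyte nuclei from 152 and 131 CPM to 804 and 600. The change was 2.30 (SE 0.24, adjusted p = 0.00398). In fibroblast nuclei, where the gene is also expressed, it had 828 and 1247 CPM at TN and 1033 and 1100 at 3D. Those values overlapped, with a change of 0.05 (SE 0.19, adjusted p = 0.990). The difference between the 2 classes was not tested.

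A further 3 genes had no UMI in the adipocyte nuclei of either TN mouse, and none of the TN aliquots listed them. Adtrp had 67.5 and 90.4 CPM at 3D, at least 3.98-fold higher (adjusted p = 0.0187). Adcy10, the bicarbonate-sensitive soluble adenylyl cyclase, had 24.2 and 29.5 CPM at 3D, at least 1.35-fold higher (adjusted p = 0.0187). Plin5, a lipid droplet protein that tethers droplets to mitochondria, had 31.4 and 20.1 CPM at 3D, at least 1.30-fold higher (adjusted p = 0.0365). The adipocyte nuclei of the TN mice had 693442 and 393540 UMIs in all, which sets these bounds. With unlisted genes put at their upper limit, Adtrp still passed and Adcy10 and Plin5 did not (adjusted p = 0.0284, 0.0919 and 0.114).

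The other 2 higher genes belong to the thermogenic list. Acot11, a thioesterase that is high in brown fat, went from 7.03 and 0 CPM to 90.4 and 44.2 (log2 change 3.93, SE 0.54, adjusted p = 0.0365). Kcnk3, a potassium leak channel of brown and beige adipocytes, went from 25.3 and 10.2 to 120 and 93.8 (2.56, SE 0.38, adjusted p = 0.0366). For both genes the 3D mice lay above the TN mice.

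Dapk1 and Usp35 were the lower genes. Dapk1, a calmodulin-regulated kinase of cell death and autophagy on chromosome 13 from 60601947 to 60763191, fell from 1144 and 984 CPM to 332 and 417 (log2 change -1.51, SE 0.20, adjusted p = 0.0187). At 500 UMIs per nucleus, 40.3% and 35.9% of adipocyte nuclei had a Dapk1 UMI at TN and 17.5% and 18.5% at 3D, against 47.3% and 44.9% and then 42.6% and 43.6% of fibroblast nuclei. Unthinned, the adipocyte shares were 56.8% and 68.5% at TN and 41.0% and 52.8% at 3D. In fibroblast nuclei the change was -0.30 (SE 0.20, adjusted p = 0.924). Usp35 went from 177 and 126 CPM in adipocyte nuclei to 69.4 and 42.9 (-1.44, SE 0.22, adjusted p = 0.0450). Ahnak, a large scaffold protein, came next and missed the threshold, with 687 and 482 CPM at TN and 229 and 227 at 3D (-1.34, SE 0.22, adjusted p = 0.0570).

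**Figure D2:**
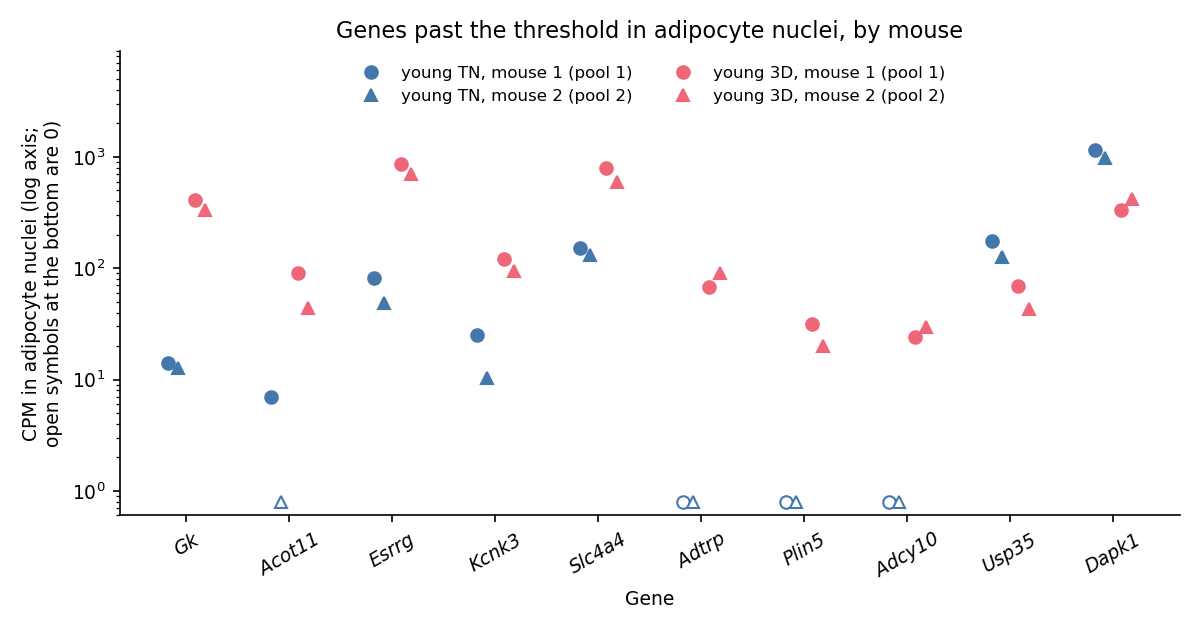
CPM in adipocyte nuclei of the 10 genes past the threshold, on a log axis, 1 symbol per mouse (circles pool 1, triangles pool 2, blue young TN, red young 3D); open symbols at the bottom stand for 0. The 8 genes on the left are higher in both 3D mice with unlisted genes at 0, as Gk with 14.1 and 12.8 at TN and 415 and 335 at 3D, and Usp35 and Dapk1 on the right are lower in both.

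The thermogenic list held 18 genes, all of them tested over all nuclei and in adipocyte nuclei. Both 3D mice lay above both TN mice in CPM for 13 of the 18 over all nuclei and for 14 of the 18 in adipocyte nuclei, and for none were they below. With the TN mice at the most UMIs that unlisted genes can hold, 11 of the 18 lay above in either set. Among all genes tested, both 3D mice lay above in 23.2% and below in 13.8% over all nuclei, and above in 25.9% and below in 14.1% in adipocyte nuclei. Over all nuclei 2 members passed (Gk and Esrrg), against 0.016% of all genes tested. In adipocyte nuclei 4 passed (Gk, Esrrg, Acot11 and Kcnk3), against 0.0955% of all genes tested there. The median log2 change was 2.66 over all nuclei, or 1.74 with the 4 members that were at 0 at TN put at their bound, against 0.07 over all genes, or 0 with bounds. In adipocyte nuclei it was 3.57, or 1.63 with 5 such members at their bound, against 0.09, or 0.01 with bounds.

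Several core members of the program missed the threshold over all mice. Ppargc1a, the coactivator of mitochondrial biogenesis whose promoter is given above, had 54.9 and 120 CPM in adipocyte nuclei at TN and 211 and 406 at 3D. The 4 values did not overlap, with higher values in pool 2 at either temperature (log2 change 1.85, SE 0.31, adjusted p = 0.0570). Ucp1 and Cidea are named for their role and not by the rule for named genes. Ucp1 had no UMI at TN and 138 and 22.8 CPM at 3D, at least 4.05-fold higher, with a wide gap between the 3D mice (adjusted p = 0.0965). Cidea, a lipid droplet protein that is high in brown fat, went from 8.44 and 12.8 CPM to 289 and 147 (4.42, SE 0.75, adjusted p = 0.0570). The bound of Ucp1 rests on 3D mouse 1: with 3D mouse 2 alone it is 1.15-fold. TN mouse 2 can hold up to 25.6 CPM of Ucp1 in adipocyte nuclei, above the value of 3D mouse 2, whereas Cidea was higher in both 3D mice.

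Other members overlapped between the groups. Prdm16, a transcriptional coregulator of brown and beige fate, had 266 and 469 CPM in adipocyte nuclei at TN and 467 and 352 at 3D, which overlapped (0.18, SE 0.39). Esrra, the relative of Esrrg, had 142 and 190 CPM at TN and 226 and 149 at 3D (0.19, SE 0.27). Elovl3, an elongase of fatty acids, had no UMI in the 4 mice.

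De novo lipogenesis, the synthesis of fatty acids from sugar, had a positive median as well. None of its 15 genes passed over all nuclei, where both 3D mice were above both TN mice for 9 and below for none, with a median of 1.30, against 23.2% above and 13.8% below among all genes. In adipocyte nuclei the median was 1.16, with 9 above and 1 below, against 25.9% and 14.1% of all genes, and again no member past the threshold. Acaca, the acetyl-CoA carboxylase of the cytosol, had 1188 and 1258 CPM in adipocyte nuclei at TN and 3948 and 2294 at 3D (1.38, SE 0.66, adjusted p = 0.370). Acacb, its mitochondrial counterpart, had 848 and 940 CPM and then 2087 and 1845 (1.16, SE 0.50, adjusted p = 0.318). For Tkt, a transketolase of the pentose phosphate pathway, 249 and 259 CPM stood against 499 and 374 (0.78, SE 0.21, adjusted p = 0.148). These 3 genes did not overlap between the groups, and the 3D mouse of pool 1 had the highest value of each.

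Genes of fatty acid uptake and oxidation were next. Of the 18 listed, 16 were tested in adipocyte nuclei, none passed, and both 3D mice lay above for 8 and below for none (median 0.71, against 25.9% above among all genes). Over all nuclei 10 of 17 were above and 1 below (median 0.75, or 0.68 with 1 member at its bound, against 23.2% above and 13.8% below). Pdk4, a kinase that turns mitochondria from sugar to fat, had 7.03 and 0 CPM in adipocyte nuclei at TN and 288 and 71.0 at 3D (5.32, SE 1.14, adjusted p = 0.0734). The acyl-CoA dehydrogenases Acadvl and Acadl had changes of 1.58 (SE 0.36, adjusted p = 0.0939) and 1.33 (SE 0.31, adjusted p = 0.102). Acadvl lay at 15.5 and 15.4 CPM at TN and at 60.2 and 30.8 at 3D. For triglyceride synthesis, 4 of 10 genes were above and none below over all nuclei, and 2 and 0 in adipocyte nuclei (medians 0.45 and 0.15), against 23.2% and 25.9% of all genes above.

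The list of adrenergic signalling and lipolysis, which connects cold to the adipocyte, came next. Over all nuclei 5 of the 19 genes tested were above and 1 below (median 0.37, against 0.07 for all genes), and none passed. Among all genes 23.2% lay above and 13.8% below there. In adipocyte nuclei 17 of 21 genes were tested, none passed, 5 were above and 1 below, against 25.9% and 14.1% of all genes, and the median of 0.06 lay beside that of all genes (0.09). Gnas, the stimulatory G protein, and Plin1, the coat of the lipid droplet, had changes of 0.66 (SE 0.24) and 0.68 (SE 0.24), both with an adjusted p of 0.243. Adcy3, an adenylyl cyclase, had a change of 1.01 (SE 0.40, adjusted p = 0.279). The member below was Adrb3, the β-adrenergic receptor of adipocytes, with 718 and 999 CPM at TN and 555 and 590 at 3D (-0.57, SE 0.25, adjusted p = 0.326).

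No gene of the white adipocyte and glucocorticoid lists passed. Of 9 hormones and receptors of white adipocytes, 3 were below and 2 above in adipocyte nuclei (median -0.12, against 14.1% below and 25.9% above among all genes), and 4 were below and 0 above over all nuclei (median -0.43, against 13.8% and 23.2%). Npr3, which clears natriuretic peptides, had 734 and 505 CPM in adipocyte nuclei at TN and 223 and 189 at 3D (-1.58, SE 0.29, adjusted p = 0.0597). Nnat, a small membrane protein of the endoplasmic reticulum, had 2760 and 2480 CPM and then 1049 and 1223 (-1.21, SE 0.36, adjusted p = 0.171). The TN mice were higher for both, and cluster 2, which held most adipocyte nuclei at TN, was defined in part by Nnat. Of 10 glucocorticoid-responsive genes, 2 were below and 0 above in adipocyte nuclei (median -0.51, against 14.1% below among all genes), and 5 were below and 0 above over all nuclei (median -0.64, against 13.8% below). Zbtb16, a zinc finger transcription factor, had 3817 and 2680 CPM and then 1790 and 1534 (-0.95, SE 0.21, adjusted p = 0.0802). Errfi1, an inhibitor of the EGF receptor, had 149 and 0 CPM at TN and 36.0 and 3.35 at 3D, so its values followed the pool.

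Circadian clock genes, which cycle over the day in different phases, did not pass in any class. Of 19 genes, 3 were above and 1 below over all nuclei (median 0.09). In immune nuclei 4 of the 9 tested were above and 0 below (median 0.58, against 14.5% above among all genes). Adipocyte nuclei had 1 of 18 above and 2 below (0.03), fibroblast nuclei 2 of 16 and 1 (0.13) and endothelial nuclei 2 of 6 and 1 (0.11). In these 3 classes 25.9%, 17.1% and 14.9% of all genes lay above and 14.1%, 15% and 13.4% below. Over all nuclei 23.2% of all genes lay above and 13.8% below. Of the other lists there, glucose uptake and insulin signalling had 4 of 10 genes above and 0 below (median 0.30), heat shock 3 of 9 above and 0 below (0.02), adipogenic regulators 1 of 13 above and 3 below (-0.07), adipocyte progenitor markers 0 of 12 above and 5 below (-0.25) and proliferation 1 of 6 above and 3 below (0.05, or -0.12 with 2 members at their bound). Creatine and calcium cycling had 1 of 6 above and 0 below, with 3 members at 0 at TN and a median of 0 with these at their bound. None of these genes passed. Liver markers overlapped for all 15 genes tested (median -1.45, or -1.15 with bounds), and 2 of 6 skeletal muscle markers lay above and 0 below.

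**Figure D3:**
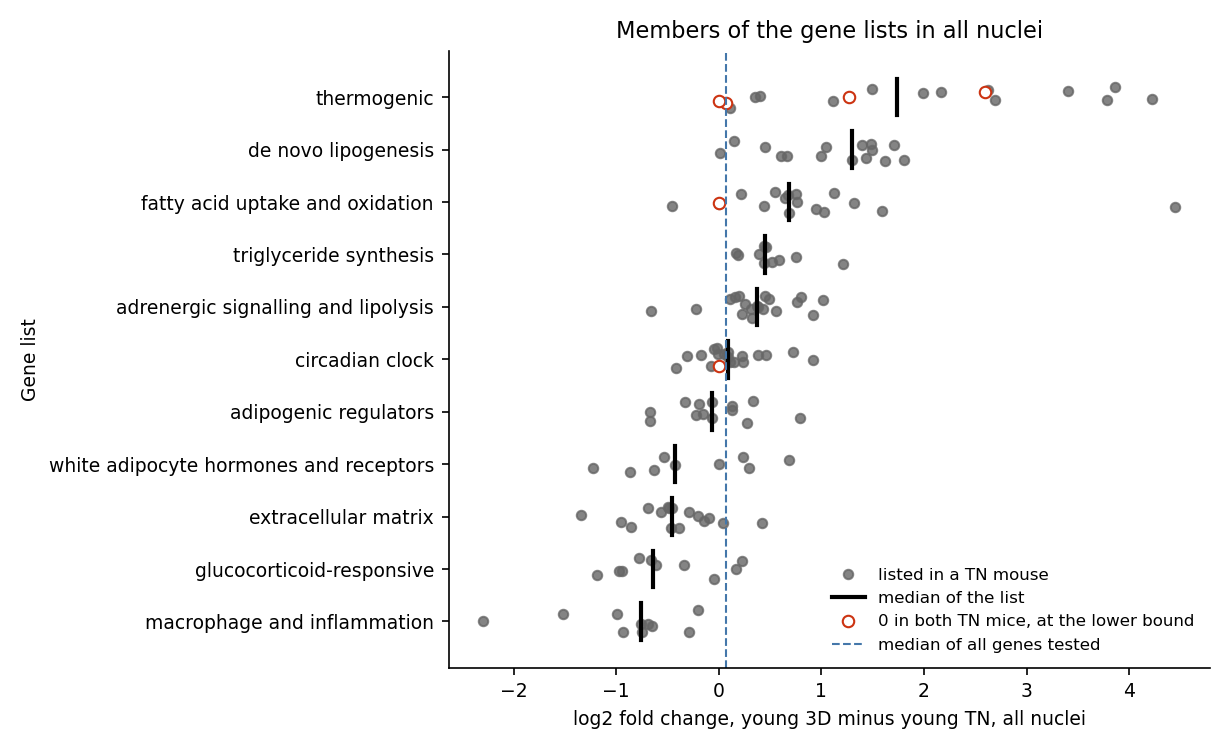
Log2 fold change of each list member, young 3D over young TN, over all nuclei (horizontal axis) for 11 gene lists (rows); grey points are single genes, black bars the medians of the lists, and the dashed line the median of all genes tested (0.07). Open red circles are genes at 0 in both TN mice, drawn at their lower bound or at 0 where no bound above 1 exists, and genes at 0 in all 4 mice are left out. Among the lists drawn, the thermogenic list reaches furthest to the right (median 1.74 with bounds) and the macrophage list furthest to the left (median -0.76).

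Extracellular matrix genes lay lower over all nuclei, where fibroblasts gave a smaller part of the UMIs at 3D. Both 3D mice were below both TN mice for 10 of 17 genes and above for 1 (median -0.46, none past the threshold), against 13.8% below and 23.2% above among all genes. Postn, a matrix protein of remodelling tissue, had 49.9 and 129 CPM at TN and 23.4 and 44.7 at 3D (-1.34, SE 0.35, adjusted p = 0.194). Fn1, fibronectin, had 194 and 216 CPM and then 84.8 and 129 (-0.96, SE 0.29, adjusted p = 0.251). Fibroblast nuclei held 25.5% and 30.7% of the UMIs at TN and 15.97% and 26.7% at 3D, and their part in these values was not tested. Within adipocyte nuclei 6 of 16 matrix genes were below and 2 above, with a median of -0.70 and none past the threshold, against 14.1% below and 25.9% above among all genes. There Col6a3, a chain of collagen VI, stood at 182 and 151 CPM at TN and 39.3 and 33.5 at 3D (-2.20, SE 0.38, adjusted p = 0.0570), while Adam12, a metalloprotease that marks adipocyte progenitors, had 348 and 743 CPM and then 830 and 1010 (0.83, SE 0.27, adjusted p = 0.216).

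In fibroblast nuclei 2 of 7774 genes tested passed (0.0257%), Itga2 and Gm48099, and the median change was 0.02. Itga2, the collagen-binding integrin alpha subunit on chromosome 13 from 114833081 to 114932100, had no UMI in fibroblast nuclei at TN and 55.8 and 55.8 CPM at 3D, from 18 and 37 UMIs. It was at least 1.503-fold higher (adjusted p = 0.0497). Gm48099, a long noncoding RNA on chromosome 14 from 19271274 to 19282822, fell from 286 and 393 CPM to 80.6 and 76.9 (-2.17, SE 0.36, adjusted p = 0.0497). Adipocyte nuclei held most of its UMIs, 578 of 706 and 154 of 270 at TN and 831 of 908 and 352 of 438 at 3D. There its values overlapped (-0.66, SE 0.48, adjusted p = 0.586), as they did in immune nuclei (-0.06, SE 0.47, adjusted p = 0.996). Both calls are close to the threshold: no gene passed without the pool as a term (0) or in DESeq2 (0), and without the marked nuclei or under RLE scaling 1 gene passed, lower at 3D. Itga2 was lost in both and with unlisted genes at their upper limit, and Gm48099 was kept in these 3. Without any 1 mouse the count lay between 0 and 5, with 0 without either TN mouse or 3D mouse 2 and 5 without 3D mouse 1.

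The next fibroblast genes missed the threshold. Hrh2, a histamine receptor, and 9630002D21Rik had no UMI at TN and were at least 1.09-fold and at least 1.24-fold higher (adjusted p = 0.100 and 0.152). Egfr, the receptor of epidermal growth factor, had 5468 and 5920 CPM at TN and 3876 and 3595 at 3D (-0.61, SE 0.15, adjusted p = 0.350). Sned1, a matrix glycoprotein, had 437 and 629 CPM and then 273 and 329 (-0.82, SE 0.17, adjusted p = 0.161). Both genes were lower in both 3D mice.

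Within fibroblast nuclei no matrix gene passed. Both 3D mice lay below both TN mice for 4 of 16 and above for 2 (median -0.11), against 15% below and 17.1% above among all genes tested there. Postn had 168 and 441 CPM at TN and 118 and 131 at 3D (-1.26, SE 0.34, adjusted p = 0.389), and Fn1 531 and 559 CPM and then 357 and 374 (-0.56, SE 0.18, adjusted p = 0.608). Of the 14 adipocyte progenitor markers, 12 were tested, 5 were above and none below, and the median was 0.08. Dpp4, which marks early progenitors, had 535 and 484 CPM at TN and 614 and 795 at 3D (0.52, SE 0.22, adjusted p = 0.855). Fmo2, a monooxygenase on this list, had 83.8 and 110 CPM and then 264 and 149 (1.03, SE 0.38, adjusted p = 0.709).

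No gene of the 4302 tested in immune nuclei passed in edgeR (0%) or DESeq2 (0), whereas 44 passed without the filter on low counts and 4 with unlisted genes at their upper limit. Before adjustment, 209 had a p under 0.05 in edgeR, and the lowest adjusted p was 0.947. The mice gave 114 and 93 immune nuclei at TN and 108 and 141 at 3D. Retnla, a secreted protein of alternatively activated macrophages, had 699 and 811 CPM at TN and 306 and 430 at 3D (-1.01, SE 0.29, adjusted p = 0.947). Over all nuclei, where immune nuclei gave 9.55% and 11.6% of the UMIs at TN and 6.01% and 7.22% at 3D, it had 57.7 and 82.1 CPM and then 18.5 and 30.0 (-1.52, SE 0.37, adjusted p = 0.168). Mrc1, the mannose receptor of resident macrophages, had 2192 and 2176 CPM in immune nuclei at TN and 1316 and 2072 at 3D (-0.39, SE 0.22, adjusted p = 0.961). Of the 16 genes on the macrophage and inflammation list, 10 were tested over all nuclei, with 3 below and 0 above (median -0.76, against 13.8% below and 23.2% above among all genes), and the part of the immune share of UMIs in this was not tested. Of the 16, 8 were tested in immune nuclei, with 2 below and 0 above (median -0.06), against 14.6% below and 14.5% above among all genes. Markers of Kupffer cells, the macrophages of the liver, summed to 64.1 and 1161 CPM in immune nuclei at TN and to 104 and 263 at 3D, with the highest value in the TN mouse of pool 2, and their part in these values was not tested. Wdfy4, which dendritic cells use to present antigens, and Galnt7, a glycosyltransferase, had changes of -1.30 (SE 0.33) and -0.92 (SE 0.26), both with an adjusted p of 0.947.

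The higher genes of immune nuclei with the smallest p were Negr1, Naip5 and Pde3b. Negr1, a cell adhesion molecule, had 334 and 77.7 CPM in immune nuclei at TN and 1223 and 624 at 3D (2.23, SE 0.46, adjusted p = 0.947), and 5710 and 6156 of the 5946 and 6589 Negr1 UMIs of the 3D mice were in adipocyte nuclei. Pde3b, a phosphodiesterase of adipocytes, had 449 and 233 CPM and then 1455 and 988 (1.83, SE 0.44, adjusted p = 0.947). Naip5, an inflammasome sensor, had no UMI at TN and 10 and 16 UMIs at 3D, but no TN aliquot listed it, and no fold above 1 can be given. Of the lipogenic genes 12 were tested in immune nuclei, with 4 above, 0 below and a median of 1.56, and none passed. Among all genes tested there, 14.5% lay above and 14.6% below, with a median of 0.004. Acaca had 136 and 11.1 CPM at TN and 1381 and 248 at 3D. The 8 adipocyte markers summed to 2160 and 1049 CPM in immune nuclei at TN and to 7010 and 1322 at 3D, all 8 with a UMI. Their part in these values was not tested.

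No gene of the 2438 tested in endothelial nuclei passed in edgeR (0%) or DESeq2 (0), 2 passed without the filter on low counts, and 92 had a p under 0.05 in edgeR before adjustment. The mice gave 46 and 43 endothelial nuclei at TN and 52 and 83 at 3D, from 42472 to 115103 UMIs per mouse. Of the endothelial nuclei, those of pool 2 held markers of liver sinusoids (125 UMIs at TN, 140 at 3D), and those of pool 1 held none. Both 3D mice lay above both TN mice for 14.9% of the genes and below for 13.4%. The higher genes with the smallest p were Tbc1d12, Rspry1 and Prkag1, a subunit of AMP-activated kinase, with 0 UMIs at TN and 7 and 10 at 3D (at least 1.79-fold higher). Rspry1 had 128 and 51.5 CPM at TN and 282 and 327 at 3D. The lower ones were Plin4, a lipid droplet protein whose values overlapped, Tnfaip8 and Grasp, which had 288 and 257 CPM at TN and 84.5 and 90.1 at 3D. All 6 had an adjusted p of 0.994. The 8 adipocyte markers summed to 3744 and 5191 CPM in endothelial nuclei at TN and to 2808 and 3162 at 3D. Their part in the values of Plin4 was not tested. Of 14 genes of angiogenesis and endothelium, 8 were tested, 1 was above and 0 below (median 0.06). The member above, and the one with the smallest p, was Tek, the receptor of angiopoietins, with 480 and 412 CPM at TN and 535 and 687 at 3D (0.47, SE 0.36, adjusted p = 0.994). Kdr, the main receptor of VEGF, had 288 and 489 CPM at TN and 84.5 and 338 at 3D, which overlapped (-0.78, SE 0.64).

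The cold response of young mice was also set against that of aged mice, by the difference of the log2 changes over all nuclei. No gene passed in edgeR (0 of 12521, 0%, with 703 below 0.05 before adjustment), whereas DESeq2 called 36. Xkr4, a scramblase-related membrane protein, came first, with 21.5 and 22.5 CPM at TN and 25.4 and 33.1 at 3D in young mice. In aged mice it had 172 and 155 CPM at TN and 46.3 and 50.8 at 3D, so the groups that stood apart were the aged TN mice (difference 2.17, SE 0.26, adjusted p = 0.141). Armc10, Nudt6 and 4930432B10Rik also ranked among the first, each with an adjusted p of 0.265. These 3 were at 0 in both young TN mice and between 9.52 and 21.4 CPM in the other 6 mice. A TN mouse can hold up to 10 UMIs of a gene that its aliquots do not list, so no size is given for these differences.

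Esrrg and Gk had smaller changes in aged mice, though the differences between ages missed the threshold. Both genes were picked by their change in young mice. The difference uses those values again, so it is no independent test. Esrrg had 36.3 and 57.3 CPM in aged TN mice and 119 and 73.5 in aged 3D mice (0.98, against 3.78 in young mice; difference 2.80, SE 0.50, adjusted p = 0.265). For Gk the aged values were 12.7 and 6.18 CPM and then 22.9 and 24.1 (1.42, against 4.22; difference 2.80, SE 0.70, adjusted p = 0.403). Ucp1 was at 0 in all 4 aged mice, against 107 and 13.5 CPM over all nuclei of the young 3D mice. Usp35 had 115 and 92.6 CPM in aged TN mice and 54.6 and 40.2 in aged 3D mice, a change of -1.13 beside -1.02 in young mice (difference 0.11, SE 0.25, adjusted p = 1).

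**Figure D4:**
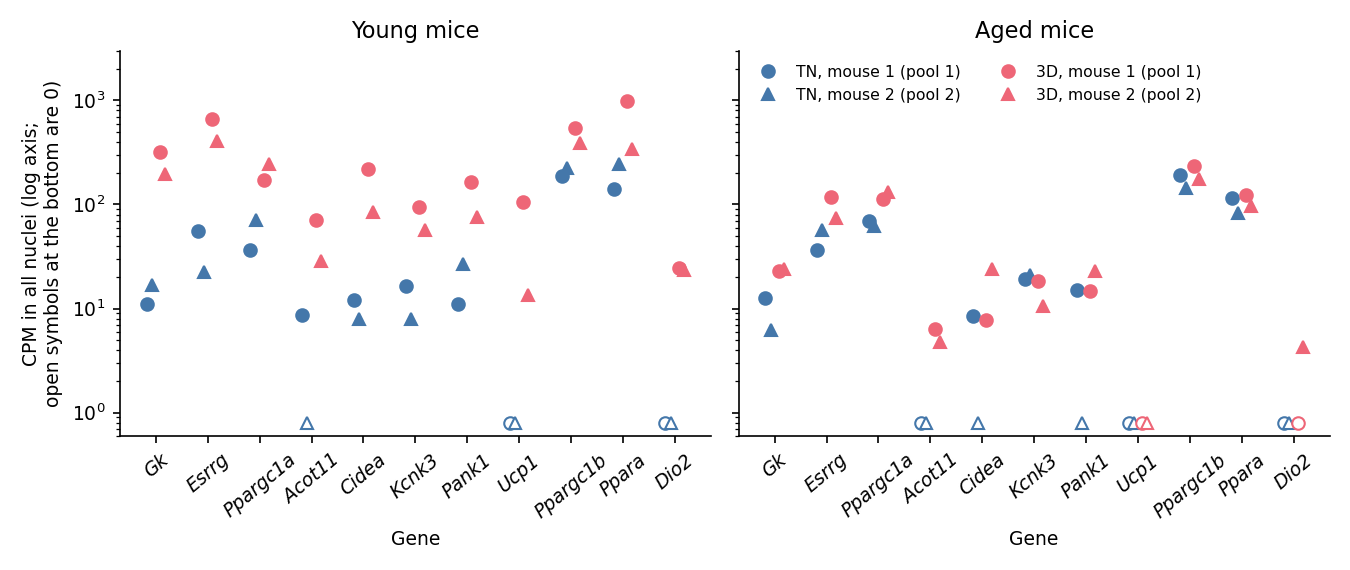
CPM over all nuclei of 11 of the 18 thermogenic genes, drawn from the 13 for which both young 3D mice lie above both young TN mice, in young (left) and aged mice (right), on a log axis, 1 symbol per mouse (circles pool 1, triangles pool 2, blue TN, red 3D); open symbols at the bottom stand for 0. In young mice the 2 red symbols lie above the 2 blue ones for every gene shown, by that choice. In aged mice the values of Gk are 12.7 and 6.18 at TN and 22.9 and 24.1 at 3D. Ucp1 is at 0 in all 4 aged mice, with unlisted genes at 0.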

How the data were processed

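Nuclei were isolated from frozen iWAT, and each sample was split into 2 aliquots, stained with a hashtag each. The aliquots were sorted, a similar number of nuclei from each, into 1 of 2 pools. As the study's methods give it, the authors aligned reads to GRCm38 with Cell Ranger, counting introns, removed ambient RNA with CellBender (which can remove true low counts of genes that are abundant in another cell type), assigned hashtags with demuxEM and kept singlets. The authors deposited 1 matrix per aliquot of whole-number counts of UMIs per gene and nucleus, not normalized. An aliquot lists a gene only from 6 UMIs upward, so an unlisted gene was taken as 0 and can, as a rule, hold up to 5 UMIs. The study also kept only genes found in at least 2 cells. A gene whose UMIs all lay in 1 nucleus could therefore be unlisted with more than 5. The bounds and upper limits leave this case out. The 8 young TN and 3D aliquots listed 7038 to 12016 genes, 6414 of them in all 8. The labels of the libraries give no age or temperature, which were read, with the replicate and hashtag, from the authors' sample table. Hashtag libraries were not used. The 12 tissue samples are 2 mice for each of the 6 groups, as the study gives it.

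The 2 aliquots were summed to 1 mouse, 2 mice a group, with 1 mouse of each of the 6 groups in each pool. Replicate numbers mark the pool, and over the 9062 genes detected in the 4 mice, the difference between replicates 1 and 2 at TN correlated with that at 3D (Pearson r = 0.209, log2(CPM + 1)). The pool was a term in the fits. Nuclei were integrated by pool and clustered in Seurat 5.3.0 (R 4.3.3; 2000 variable genes, 18 dimensions, resolution 0.4), and clusters were named from marker genes. Scrublet (scanpy 1.11.5, expected rate 0.05) called doublets. UMIs were summed per mouse and class (at least 10 nuclei) and all 12 mice were fitted in edgeR 4.0.16 with TMM scaling, filterByExpr and the quasi-likelihood test. Genes passed at a Benjamini-Hochberg adjusted p under 0.05, taken over every gene tested in a class. Standard errors are derived from F (the absolute log2 change over its square root). CPM uses TMM-scaled totals. Bounds on folds put each TN mouse at 3 UMIs, or at 5 UMIs per aliquot that does not list the gene. Intervals of shares are 95% Wilson intervals and cover counting error only. Positions are from GENCODE release M21, not the authors' release. The scripts were tested on simulated counts.

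The comparison, the gene lists and the rule for named genes were chosen with earlier results of these data known. Named are the members with the smallest p of each list, the 12 genes per direction (6 for a class) with the smallest adjusted p among those past the threshold, or the 3 with the smallest p where fewer passed, and the 5 for the difference between ages, of which 1 is not reported here. Ucp1, Cidea, Prdm16, Esrra, Elovl3, Adrb3, Adam12 and Kdr were named for their roles, after their values were seen. Lists are described by the number of members for which both 3D mice lie above or below both TN mice, with no test of a list. Alternatives were RLE scaling, no filter, DESeq2 1.42.0, no pool term, filtered nuclei, thinning, genes listed in all 8 aliquots, resolution 0.8, a minimum of 500 genes, the 4 young mice alone and leaving out each mouse. Unlisted genes at their upper limit, and adipocytes without the doublet cluster, were added after seeing the data.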

Additional observations from a re-analysis of the deposited data

How the results depend on the processing

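The pool as a term (the replicate block) raised the counts of genes past the threshold: without it 0 genes passed over all nuclei, 5 in adipocyte nuclei (all 5 among the 10) and 0 in fibroblast nuclei. Over all nuclei 4 passed with RLE scaling, 4 without a filter on low counts, 7 in the 4 young mice alone, 4 at 500 UMIs per nucleus, 370 in DESeq2 (324 higher, 46 lower) and 161 with unlisted genes at their upper limit (160 higher), with Esrrg and Gk in each of these counts. Among the 6414 genes listed in all 8 aliquots 2 passed, Esrrg and 1 other, since Gk was not listed in all and could not be tested. In adipocyte nuclei 75 passed without a filter, 144 in DESeq2 (100 higher, 44 lower), 18 in filtered nuclei, 65 at the upper limit (6 of the 10 among them) and 23 without the doublet cluster. In fibroblast nuclei the counts were 1 with RLE scaling, 33 without a filter, 0 in DESeq2, 1 in filtered nuclei, 8 in the 4 young mice and 5 at the upper limit (Gm48099 among them, Itga2 not). In immune nuclei 44 passed without a filter and 4 at the upper limit, in endothelial nuclei 2 without a filter, and for the difference between ages 36 in DESeq2. The cause of these differences was not tested. The upper limit also moved the median change of all genes, from 0.09 to -0.16 in adipocyte nuclei. Without any 1 mouse the counts lay at 0 over all nuclei, between 0 and 16 in adipocyte and between 0 and 5 in fibroblast nuclei, and between 0 and 1 for the difference between ages, with 1 without aged TN mouse 1.

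The log2 change of the adipocyte share became -0.0029 and that of the fibroblast share 0.016 in nuclei with at least 500 genes. That of the endothelial share became 0.14 in filtered nuclei and 0.0080 without the pool as a term. Without any 1 mouse it lay between 0.063 and 0.13 for the adipocyte, -0.16 and 0.0030 for the fibroblast, -0.39 and -0.24 for the immune and -0.13 and 0.099 for the endothelial share. No alternative took a share past the threshold. Among named genes 2 values changed sign: Errfi1 in adipocyte nuclei (between -2.12 and 5.84 without any 1 mouse, positive without TN mouse 1, since TN mouse 2 had no UMI) and Mrc1 in immune nuclei (0.000011 at the upper limit). The 14 calls of named genes were kept in 113 of their alternatives and lost in 66. With 2 mice a group, what size of change could be found in the rarer classes was not measured, genes of up to 5 UMIs per aliquot can be unlisted, and adipocyte nuclei were deeper at 3D.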
